A study of Homo sapiens with 6 samples.

Results

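The 2 control libraries of MOLM-13 cells are described here, chosen by their label alone out of the 6 libraries of the series. MOLM-13 is a human acute myeloid leukaemia line that carries the MLL-AF9 fusion, and, as background, it also carries an internal tandem duplication of the FLT3 gene. The cells of both libraries had received a lentiviral short hairpin RNA with no target in the genome (shNT) and had been selected with puromycin, so neither represents untouched cells. The cells grew in RPMI medium with fetal bovine serum, and libraries made with the TruSeq RNA kit were sequenced on an Illumina HiSeq instrument. The time between transduction and harvest is not given for these libraries, and nothing in the labels says whether they came from separate cultures. The other 4 libraries, with a hairpin against LAMP5, were not used, and no effect of a knockdown is reported.

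The MLL-AF9 protein joins the chromatin-binding front of the histone methyltransferase KMT2A (MLL) to the end of AF9, encoded by MLLT3, a subunit of transcription elongation complexes. The fusion holds elongation factors and the methyltransferase DOT1L at genes of the HOXA cluster and its partner MEIS1, which are normally switched off as blood progenitors mature. Leukaemias of this class often stop at a monocyte or granulocyte-monocyte precursor stage, with primary granule enzymes and the myeloid antigen CD33 but few proteins of mature phagocytes.

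Values are TPM, the share of all transcripts that a gene holds after correction for transcript length, so levels of different genes can be compared within a library. A gene was counted as detected at 1 TPM or more in both libraries, and pairs of values are always given for shNT 1 first and shNT 2 next. With 1 group of 2 libraries no test of a difference is possible, so no p-value is given anywhere, and a gap between the libraries is read only against the gaps of all other genes. In bulk RNA, a gene carried by fewer cells and a gene with less RNA per cell cannot be told apart. The read depth of each library is unknown, because TPM does not keep it.

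Of 18900 protein-coding genes in the table, 10286 were detected, 6379 of these stood at 10 TPM or more in both libraries, and 964 at 100 TPM or more. Only 111 genes reached 1000 TPM in both libraries. At the other end, 8107 protein-coding genes lay under 1 TPM in both, and 3451 of them were listed at 0 in both. The middle detected gene had 16.6 TPM in shNT 1 and 17.4 TPM in shNT 2. Protein-coding genes held 91.3% and 92.5% of all TPM, processed pseudogenes 2.38% and 2.04%, and long intergenic non-coding RNAs 0.0670% and 0.0775%.

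The output of the cells was concentrated in protein synthesis and respiration. The 10 most abundant genes held 11.5% of protein-coding TPM in each library, and the 100 most abundant held 47.0% and 45.1%. Among those 100 genes were 62 cytosolic ribosomal protein genes and all 13 protein-coding genes of the mitochondrial genome, which left 25 others. The mitochondrial genes, subunits of the respiratory chain, took 10.2% and 10.6% of protein-coding TPM, and the 83 ribosomal protein genes took 27.4% and 24.2%.

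The highest protein-coding gene was EEF1A1, the elongation factor that brings aminoacyl-tRNA to the ribosome, at 14500 and 14626 TPM. MT-CO3 and MT-CO1, subunits of cytochrome c oxidase, followed at 11827 and 11486 TPM and at 10139 and 10771 TPM. FTL, the light chain of the iron store ferritin, reached 8131 and 7620 TPM, above the actin gene. TMSB4X, which binds free actin, stood at 6331 and 5017 TPM, and ACTB itself at 3730 and 3878 TPM. All of these genes differed by less than 1.5-fold between the libraries, and so did GAPDH, the glycolytic enzyme, at 3737 and 3615 TPM.

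**Figure D1:**
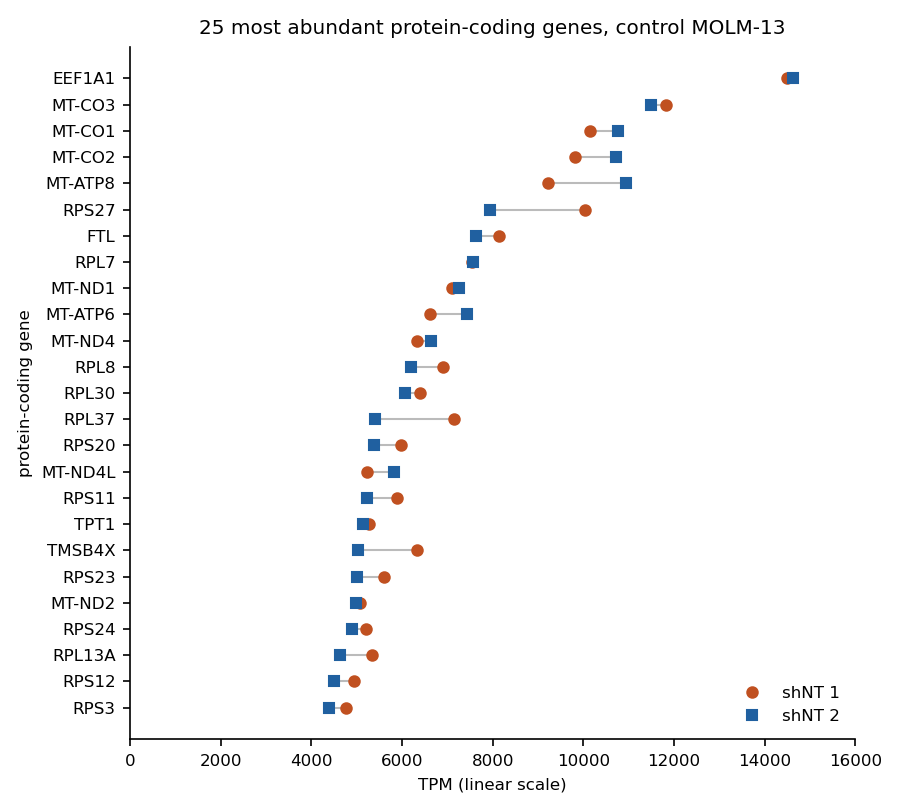
TPM on a linear axis from 0 of the 25 protein-coding genes with the highest values, with 1 circle for shNT 1 and 1 square for shNT 2 joined by a line. Of these genes 12 are ribosomal and 9 mitochondrial, and EEF1A1 (14500 and 14626 TPM) is ahead of MT-CO3 (11827 and 11486 TPM).

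Among the 25 abundant genes outside the ribosome and the mitochondrion, 3 belong to myeloid granules. SRGN encodes serglycin, the proteoglycan core that packs granule proteins, and had 2963 and 4894 TPM. PRTN3, the serine protease proteinase 3, had 2777 and 5725 TPM. LYZ, the secreted antibacterial enzyme lysozyme, had 1984 and 6062 TPM. All 3 were higher in shNT 2. PRTN3 and LYZ were the only genes among the 100 most abundant whose libraries differed by 2-fold or more. PRTN3 only just passed, at 2.06-fold, and LYZ was at 3.05-fold. NPM1, a nucleolar chaperone and a frequent mutation target in acute myeloid leukaemia, ranked among the same 25 genes at 3206 and 3451 TPM.

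Some levels in this table are uncertain, since genes with near-identical copies can share reads, which was not tested. RPL4 is listed at 10.6 and 11.1 TPM, while the 56 genes of the ribosomal protein list had a median of 2899 and 2569 TPM. RPL13 (86.2 and 101 TPM) and RPS9 (52.8 and 43.1 TPM) are similarly far under that median. The 4094 rows with no gene type hold 4.70% and 3.97% of all TPM, and the highest of them, ENSG00000226958, stands above EEF1A1 at 20888 and 15877 TPM. Levels of HLA, ribosomal protein and histone genes are therefore uncertain wherever they are given or counted, and HLA-DRA, listed at 0 in both libraries, cannot be read as silent. Its chaperone CD74 had 204 and 244 TPM.

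Receptors for growth factors define which cytokines a myeloid cell can answer, and 20 of the 22 in the list were detected. FLT3, the receptor tyrosine kinase that carries an activating mutation in this line, had 84.8 and 135 TPM. CSF3R, the receptor for the granulocyte factor G-CSF, was close to it at 96.3 and 112 TPM. IL6R stood at 70.4 and 83.6 TPM, and CSF2RA, the ligand-binding chain for GM-CSF, at 37.4 and 43.0 TPM. CSF2RB, the signalling chain that the GM-CSF and interleukin-3 receptors share, was lower at 6.23 and 5.65 TPM. The stem cell factor receptor KIT was at the edge of detection, with 1.14 and 0.922 TPM. EPOR, the erythropoietin receptor, was measured at 4.43 and 6.69 TPM.

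At least 2-fold differences between the libraries were counted over 12304 genes with a mean of 1 TPM or more, on the log2(TPM + 1) scale, where 1.35% of genes were higher in shNT 2 and 2.96% higher in shNT 1. Of 21 growth factor receptors so counted, 4 were higher in shNT 1 and 0 in shNT 2. They were IL3RA, the interleukin-3 receptor chain CD123 (49.6 and 21.3 TPM), CSF1R, the receptor of the macrophage factor M-CSF (20.8 and 8.33 TPM), IL2RG, the shared gamma chain (36.2 and 16.2 TPM), and IL7R (71.5 and 11.3 TPM). The level of these 4 receptors in control MOLM-13 therefore depended on the library, while FLT3, CSF3R and IL6R stayed within 2-fold. With a pseudocount of 5 TPM, 2 of the 4 remained past 2-fold.

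Receptors of innate immunity were uneven. TYROBP, the adaptor that couples many myeloid receptors to kinases, was the highest of the list at 261 and 276 TPM. SIRPA, the receptor for CD47, had 76.1 and 85.2 TPM. The antibody receptors FCGR2A (49.7 and 36.0 TPM) and FCGR1A (34.4 and 31.7 TPM) were also well above the median gene. By contrast, CD14, the lipopolysaccharide co-receptor that marks mature monocytes, was under 1 TPM at 0.292 and 0.136, and its partner TLR4 had 1.95 and 2.37 TPM. FCGR3A, the CD16 receptor of non-classical monocytes and natural killer cells, was listed at 0.0885 and 0 TPM. In all, 15 of 27 matched pattern and Fc receptors were detected.

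Adhesion and homing receptors were mostly present, with 19 of 25 matched members detected. ITGB2, the beta chain of leukocyte integrins, had 196 and 191 TPM, and its partner ITGAL had 130 and 144 TPM. The other alpha chains that pair with ITGB2 were much lower, ITGAM (CD11b) at 11.7 and 5.34 TPM and ITGAX (CD11c) at 10.7 and 2.58 TPM. Both were at least 2-fold higher in shNT 1. CXCR4, which retains cells in the marrow, stood at 96.7 and 149 TPM, and CCR2, which draws monocytes to inflamed tissue, at 64.3 and 83.4 TPM. SELPLG, the ligand of P-selectin, had 53.3 and 83.3 TPM.

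Of 29 antigens that are targets or candidates for immunotherapy, 15 were detected and 12 were under 1 TPM in both libraries. LAMP5, a lysosome-associated membrane protein and the gene targeted in the rest of the series, had 170 and 282 TPM in the controls and was the highest of the list in shNT 2. CD70, the ligand of CD27, had 176 and 167 TPM. LGALS9, which encodes the TIM-3 ligand galectin-9, had 128 and 253 TPM, whereas HAVCR2, which encodes TIM-3, had 3.42 and 0.379 TPM. CD33, a sialic acid receptor and the target of an antibody conjugate, had 78.3 and 108 TPM, and CD47 had 45.2 and 58.9 TPM. IL1RAP (18.7 and 19.3 TPM) and WT1 (16.9 and 17.3 TPM) were lower and almost equal in the 2 libraries.

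Several of these antigens differed between the controls. CD276 (B7-H3) was 15.7 TPM in shNT 1 and 2.24 TPM in shNT 2. CD38, an ectoenzyme, went the other way at 11.8 and 32.6 TPM, and so did CLEC12A (CLL-1) at 3.91 and 13.2 TPM. With IL3RA and HAVCR2, 5 of 17 antigens counted differed by 2-fold or more, 3 higher in shNT 1 and 2 in shNT 2. With a pseudocount of 5 TPM, 2 remained in each direction, and among antigens with a mean of at least 10 TPM, 1 did. CD34 and CD22 were listed at 0 in both libraries, and CD7 and PRAME were under 0.2 TPM.

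Transcription factors of the myeloid lineage were among the most strongly expressed of their list. Of 85 haematopoietic factors listed, 65 were detected and 45 stood at 10 TPM or more in both libraries. SPI1 (PU.1), the master regulator of monocytes and granulocytes, had 280 and 205 TPM. MYB, which keeps progenitors dividing, had 210 and 224 TPM, and IRF8, which directs cells to monocyte and dendritic fates, had 178 and 289 TPM. MEF2D had 126 and 155 TPM, LMO2 had 72.8 and 77.0 TPM, and GFI1, a repressor needed for granulocytes, had 66.9 and 81.3 TPM. CEBPA, which starts granulocyte-monocyte commitment, was lower at 29.3 and 35.6 TPM, and RUNX1 similar at 32.6 and 27.9 TPM.

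Several factors that define other lineages were at or near 0. GATA1, which drives red cell and platelet genes, was listed at 0 in both, and its partner TAL1 had 0.0297 and 0.0317 TPM. The B cell factor PAX5 and the T cell factor GATA3 were under 0.1 TPM, and BCL11B and LEF1 were listed at 0. ERG and MECOM, factors of stem cells, were also silent by the 1 TPM rule, MECOM at 0.878 and 0.259 TPM and ERG at 0.0559 and 0.0318 TPM. GATA2, a factor of stem cells and mast cells, was detected at 18.6 and 11.8 TPM. In all, 17 of the 85 factors were under 1 TPM in both libraries.

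The HOX genes showed expression in cluster A only, by the 1 TPM rule. HOXA9, the best known target of MLL fusions, had 28.6 and 27.7 TPM, and its neighbour HOXA10 had 26.9 and 19.8 TPM. HOXA7 (12.1 and 8.18 TPM) and HOXA11 (10.1 and 8.72 TPM) came next, while HOXA3, HOXA5, HOXA6 and HOXA13 lay between 3.72 and 6.96 TPM. HOXA2 was the one member under 1 TPM in both libraries, at 0.0981 and 0.156 TPM, and HOXA4 crossed the limit in shNT 1 only, at 1.05 and 0.828 TPM, so that 9 of 11 HOXA genes were detected. None of the 9 counted differed 2-fold between the libraries. Of the other HOX clusters, all 27 matched genes were under 1 TPM in both libraries, 20 of them were listed at 0 in both, and the highest single value was 0.0734 TPM, of HOXB9.

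**Figure D2:**
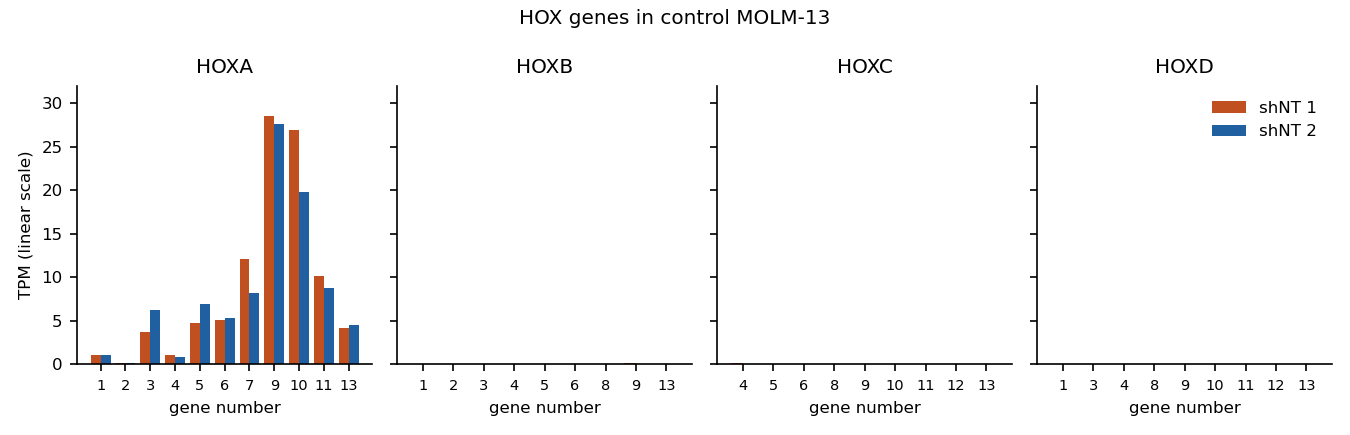
TPM of the HOX genes by cluster and gene number, with 1 bar for each shNT library on a linear axis from 0. Expression is seen only in cluster A, led by HOXA9 (28.6 and 27.7 TPM) and HOXA10 (26.9 and 19.8 TPM), and all 27 matched genes of the other clusters lie under 1 TPM.

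MEIS1, the HOXA9 partner, had 13.7 and 10.7 TPM, and PBX3, another member of that complex, had 47.6 and 45.3 TPM. Both partner genes of the fusion were low: KMT2A had 2.78 and 2.62 TPM and MLLT3 6.25 and 7.94 TPM. The table holds 1 value for each gene, so fusion transcripts and transcripts of the intact copies are not separated. All 22 matched genes of the list of fusion partners and cofactors were detected, and 0 of them differed 2-fold. MEN1, the scaffold menin, had 35.1 and 38.5 TPM, DOT1L 18.4 and 19.3 TPM, and CDK9, the elongation kinase, 53.6 and 51.5 TPM.

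Of 27 genes listed as MLL fusion targets, 22 were detected, and none differed 2-fold between the controls. Besides LAMP5 and FLT3, high members were MBNL1, a splicing regulator, at 137 and 155 TPM, and SATB1, a chromatin organiser, at 99.3 and 94.7 TPM. IGF2BP2, an RNA-binding protein, had 30.6 and 34.7 TPM, CDK6 19.2 and 14.0 TPM, and BCL2 20.0 and 19.7 TPM. Among the 5 targets under 1 TPM were HMGA2, EYA1, SIX4 and PROM1. The median difference of the list, shNT 2 minus shNT 1, was -0.07 on the log2 scale, against 0.06 over all genes counted.

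Of 24 detected driver and tumour suppressor genes of leukaemia, 0 differed 2-fold between the libraries. CDKN2A and CDKN2B, which encode inhibitors of CDK4 and CDK6, were listed at 0 in both, the only members of that list of 26 under 1 TPM. CDKN1A, an inhibitor of cyclin-dependent kinases, had 302 and 345 TPM, and the ubiquitin ligase MDM2 had 66.3 and 94.4 TPM. Of the survival proteins, MCL1 was highest at 134 and 112 TPM, above BCL2 and BCL2L1 (14.0 and 14.2 TPM). BAX, which opens the mitochondrial membrane, had 321 and 448 TPM. BCL2A1 was higher in shNT 1, at 11.8 and 2.86 TPM, and the BH3-only gene BIK in shNT 2, at 11.6 and 29.8 TPM. These were the 2 members past 2-fold of the 14 counted in the BCL2 family.

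Several genes of primary granules, which form at the promyelocyte stage, were high, and several of later granules were at 0. AZU1, azurocidin, had 789 and 1011 TPM, ELANE, neutrophil elastase, 292 and 560 TPM, and CTSG, cathepsin G, 42.0 and 77.7 TPM. MPO, myeloperoxidase and the classic enzyme of these granules, was far lower at 17.6 and 43.2 TPM. Of the genes of later granules, LTF, CAMP, LCN2 and OLFM4 were listed at 0 in both libraries, but not MMP9, the gelatinase. Of 18 genes in the neutrophil granule list, which also holds the surface receptor CXCR2, 8 were detected. Of the 10 counted between libraries, 4 were at least 2-fold higher in shNT 2 (PRTN3, MPO, CXCR2 and SERPINB10). Only MMP9, at 4.31 and 0.231 TPM, was higher in shNT 1, and the median difference was 0.90. With a pseudocount of 5 TPM, 3 remained toward shNT 2 and 0 toward shNT 1. After scaling to an equal median, 3 and 1 remained.

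Monocyte genes were also split. CTSS, a protease of antigen processing, had 109 and 127 TPM, and CD68, a macrophage lysosome protein, had 85.2 TPM in each library. The calcium-binding alarmins S100A8 (32.2 and 71.4 TPM) and S100A9 (58.2 and 140 TPM) were higher in shNT 2 with LYZ, while CSF1R and ITGAM were among those higher in shNT 1. Thus 3 of 11 counted members stood 2-fold higher in each library, and the list's median difference was 0.00. With a pseudocount of 5 TPM the 3 toward shNT 2 remained and 0 did toward shNT 1. FCN1 and C1QA, genes of mature monocytes and macrophages, were listed at 0 in both.

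Of 18 stem and progenitor markers, 5 were detected, 4 of them at 10 TPM or more in both libraries. The highest were CD164, at 162 and 120 TPM, and LAPTM4B, at 136 and 156 TPM, but both are also expressed outside stem cells. The other detected members were lower and are not named here. CD34, THY1, CRHBP, AVP and GUCY1A1 were listed at 0 in both libraries. Of eosinophil and mast cell genes, the ribonucleases RNASE2 (552 and 811 TPM) and RNASE3 (27.7 and 48.2 TPM) were high and PRG2, major basic protein, had 13.9 and 17.1 TPM. CPA3 and IL5RA were listed at 0. RNASE2 is also made by neutrophils and monocytes.

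Across blood lineages other than the monocyte, neutrophil and stem cell lists, 100 of 120 matched markers were under 1 TPM in both libraries and 10 were at 10 TPM or more. In the red cell list 18 of 20 genes were under 1 TPM, with 12 at 0 in both, and the 2 exceptions were TFRC, the transferrin receptor of all dividing cells (145 and 138 TPM), and EPOR. In the platelet list only NRGN, at 21.8 and 16.3 TPM, was above 1 TPM. In the B and plasma cell list 22 of 23 genes were under 1 TPM, with BANK1 at 1.15 and 2.38 TPM. Of 19 matched T cell genes, IL7R and CD3D (3.75 and 2.22 TPM) were detected. Of the natural killer list, NKG7, a granule membrane protein, stood out at 88.3 and 57.0 TPM, with GNLY (8.64 and 7.06 TPM) and NCAM1 (5.32 and 5.28 TPM). The killer cell genes PRF1, GZMA and GZMB were each under 0.2 TPM.

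Of 106 matched markers of tissues other than blood, 90 were under 1 TPM in both libraries and 4 were at 10 TPM or more. They were MBP (45.3 and 28.7 TPM), which also makes non-myelin forms in blood cells, ENG (24.6 and 25.9 TPM), the keratin KRT18 (18.0 and 23.6 TPM) and ACTA2 (11.1 and 18.5 TPM). OLIG2, a factor of the oligodendrocyte lineage, was detected at 7.63 and 4.71 TPM, together with its neighbour OLIG1 at 4.09 and 2.58 TPM. All 17 germ line and cancer testis genes were under 1 TPM in both libraries.

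**Figure D3:**
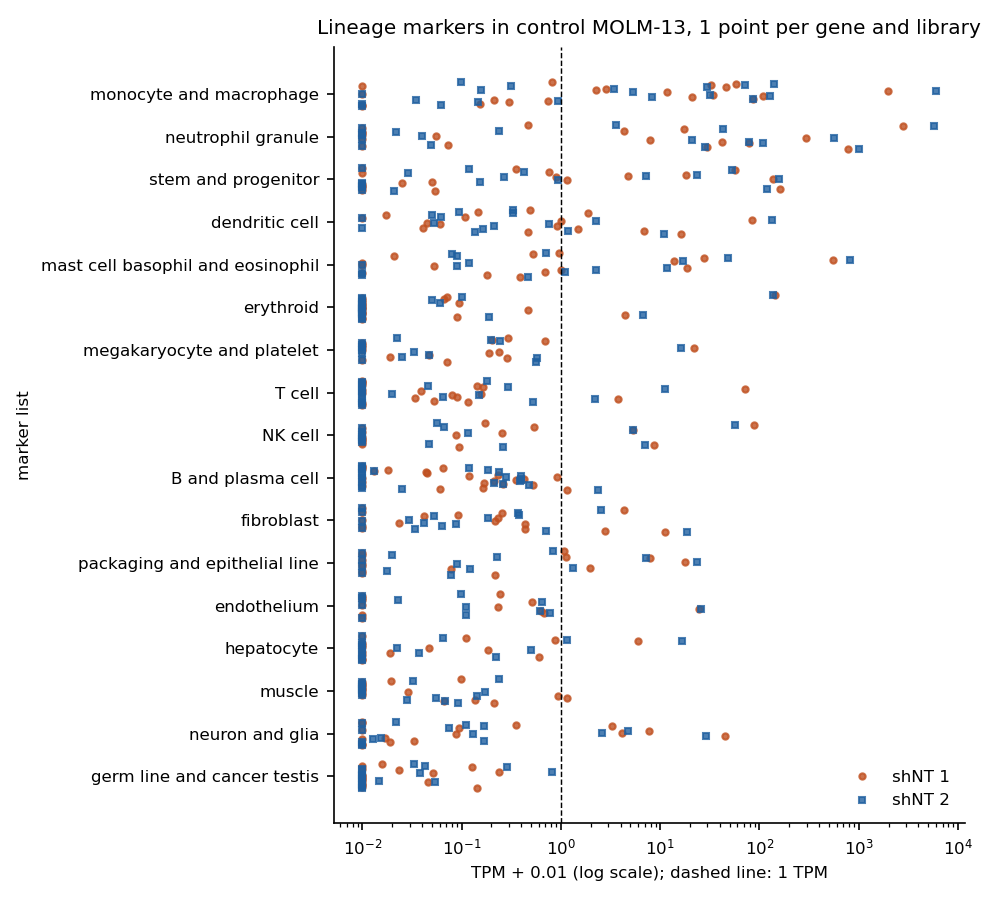
TPM + 0.01 on a log axis of every matched marker in 17 lineage lists, with 1 circle per gene for shNT 1 and 1 square for shNT 2, and a dashed line at 1 TPM. Monocyte and neutrophil lists hold the most genes at 10 TPM or more in both libraries (7 each), while 18 of 20 erythroid genes and 22 of 23 B and plasma cell genes lie under 1 TPM in both.

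The libraries were close for most genes but not all. Across the 12304 genes with a mean of 1 TPM or more, Pearson's correlation of log2(TPM + 1) was 0.973, a description across genes, which are not independent replicates. The median absolute difference was 0.22 on the log2 scale, or 1.16-fold, and 86.9% of genes lay within 1.5-fold. At least 2-fold, 364 genes were higher in shNT 1 and 166 in shNT 2. By any amount, the balance was the other way: 7053 genes were higher in shNT 2 and 5251 in shNT 1. Scatter was wider at low levels, with an SD of the log2 difference of 0.54 at means of 1 to 3 TPM and 0.31 at 100 to 1000 TPM.

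**Figure D4:**
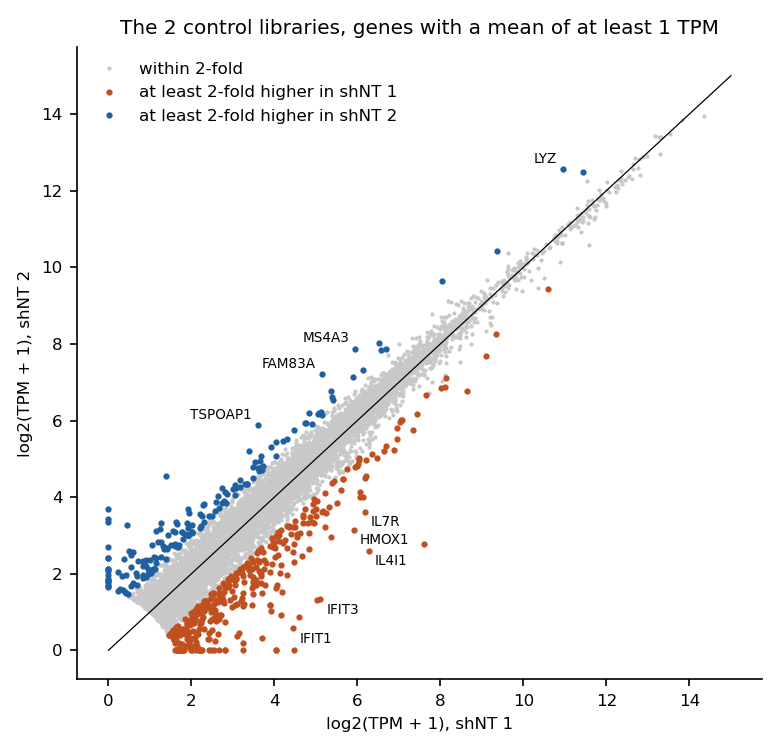
Log2(TPM + 1) of shNT 2 against that of shNT 1, with 1 point for each gene with a mean of 1 TPM or more and a line where both are equal. Most of the 12304 genes follow the line (grey), while 364 genes at least 2-fold higher in shNT 1 lie below it, among them IFIT1, and 166 higher in shNT 2 lie above it, among them LYZ.

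Among protein-coding genes with a mean of 10 TPM or more, the 3 largest gaps toward shNT 1 belonged to the antiviral interferon response. In that response, interferon receptors activate transcription factors that bind a response element in the promoters of effector genes. IFIT1, which traps viral RNA lacking a host cap, had 20.9 TPM in shNT 1 and 0.495 TPM in shNT 2, a log2 difference of -3.87. IFIT3 had 33.3 and 1.51 TPM, and IFIT2 31.9 and 1.48 TPM. In shNT 2 these genes were thus near or under the detection level.

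Of 39 interferon-stimulated genes counted, 18 were at least 2-fold higher in shNT 1 and 1 in shNT 2, with a median difference of -0.91 against 0.06 over all genes. Many of them are low, and the 18 became 9 with a pseudocount of 5 TPM and 6 among genes with a mean of at least 10 TPM. ISG15, a ubiquitin-like protein, had 72.0 and 21.5 TPM, OASL 14.2 and 1.05 TPM, and RSAD2 (viperin) 6.02 and 0.656 TPM. The ligase HERC5, which attaches ISG15 to its targets, had 11.9 and 2.36 TPM. Of the factors themselves, IRF7 (21.4 and 5.89 TPM) and IRF9 (31.1 and 12 TPM) passed 2-fold. TRIM22 was the one member past 2-fold toward shNT 2, at 69.1 and 160 TPM, and BST2 had 93.3 and 145 TPM. The response was therefore not uniform across its listed genes.

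The promoters of these genes are shown because they hold the motif searched for. The core of the interferon-stimulated response element, GAAA followed after any 2 bases by GAAA, was searched on both strands from 250 bases before to 50 bases after the start in RefSeq promoters of GRCh38.p14. The stretches below are from IFIT1 at chr10:89392477-89392559, IFIT3 at chr10:89327811-89327914, RSAD2 at chr2:6877602-6877671 and HERC5 at chr4:88456964-88457084, all on the plus strand. Capitals mark each match, here read on the other strand as TTTC, any 2 bases and TTTC, and in HERC5 a pair of matches overlap.
IFIT1: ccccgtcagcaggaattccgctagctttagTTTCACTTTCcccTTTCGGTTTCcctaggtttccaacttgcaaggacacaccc
IFIT3: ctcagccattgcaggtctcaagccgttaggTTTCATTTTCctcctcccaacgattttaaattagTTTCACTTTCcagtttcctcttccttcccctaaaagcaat
RSAD2: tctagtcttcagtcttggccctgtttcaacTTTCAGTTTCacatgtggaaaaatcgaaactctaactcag
HERC5: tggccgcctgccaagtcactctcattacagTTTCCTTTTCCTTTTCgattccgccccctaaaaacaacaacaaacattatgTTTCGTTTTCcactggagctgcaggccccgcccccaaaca

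The motif was in 24 of the 34 interferon-stimulated genes with a promoter window (70.6%) and in 1195 of all 27305 genes with one (4.38%). Among protein-coding genes at least 2-fold higher in shNT 1 it was in 22 of 190 (11.6%). Of these 22 genes, 10 were members of the interferon-stimulated list. Listed members higher in shNT 1 held it in 10 of 14 with a window (71.4%), near the 70.6% of the whole list. Among protein-coding genes higher in shNT 2 it was in 4 of 75 (5.33%), beside 358 of 8682 protein-coding genes counted between the libraries (4.12%). The 100 most abundant genes held it in 4 of 67 (5.97%). The TATA box letters TATAAA were in 19.5% of windows of genes higher in shNT 1 and in 18.7% of those higher in shNT 2, against 8.06% of protein-coding genes counted. CCAAT was in 45.3% and 37.3%, against 43.6%. A match describes the letters only and shows no binding.

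Inflammatory and immediate early genes lay mostly toward shNT 1, with exceptions. JUN, a subunit of the AP-1 factor, had 22.9 and 0.815 TPM, a log2 difference of -3.72, and ATF3, a stress-induced factor, had 24.4 and 4.54 TPM. Of 18 immediate early genes, 4 were at least 2-fold higher in shNT 1 and 1 in shNT 2, the latter EGR1 at 5.64 and 17.9 TPM. By any amount, 15 of the 18 were higher in shNT 1 and 3 in shNT 2, among the latter FOS at 48.9 and 67.0 TPM. The list's median difference was -0.49, against 0.06 over all genes counted. Of 20 NF-kB targets and inflammatory ligands counted, 5 were at least 2-fold higher in shNT 1 and 1 in shNT 2. Among those with a mean of at least 10 TPM, 2 and 1 were. By any amount, 13 of the 20 were higher in shNT 1 and 7 in shNT 2, with a median of -0.46. The monocyte chemokine CCL2 had 17.2 and 1.86 TPM and IL1B, interleukin-1 beta, had 10.0 and 1.29 TPM, whereas the neutrophil chemokine CXCL8 had 34.0 and 73.1 TPM.

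The unfolded protein and integrated stress response showed 7 of 24 genes at least 2-fold higher in shNT 1 and 0 in shNT 2, with a median of -0.64, and 4 remained with a pseudocount of 5 TPM. HSPA5 (BiP), the main chaperone of the endoplasmic reticulum, had 642 and 306 TPM. DDIT3 (CHOP), a factor of prolonged stress, had 65.6 and 15 TPM, and PPP1R15A, which restores translation, had 63.2 and 27.9 TPM. ATF4, the factor at the head of this response, was closer at 363 and 314 TPM, and its control is known to be largely translational. Of the oxidative stress genes, HMOX1, which breaks down haem, had 59.2 and 7.89 TPM, and the autophagy receptor SQSTM1 had 257 and 115 TPM. Both ferritin chains stayed within 2-fold, FTH1 at 1894 and 1134 TPM.

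Other genes with large gaps toward shNT 1 were not members of these lists. IL4I1, an amino acid oxidase secreted by myeloid cells, had 76.3 and 5.07 TPM. FCER2, the low-affinity IgE receptor CD23, had 27.3 and 5.26 TPM, and IL1RN, the antagonist of interleukin-1, had 66.1 and 16.6 TPM. ALDOC, a glycolytic aldolase, had 40.3 and 6.82 TPM, while the 28 glycolysis and hypoxia genes counted had a median of -0.05 and 3 past 2-fold. Of 18 histone genes counted, 6 were higher in shNT 1 and 0 in shNT 2, among them H1-2 at 26.9 and 9.07 TPM, and with a pseudocount of 5 TPM 3 remained past 2-fold toward shNT 1. These values carry the limit on near-identical copies given above, and, as background, most of their messages lack a poly(A) tail.

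At a mean of 10 TPM or more, protein-coding genes with the largest gaps toward shNT 2 included several of granulocytes and a lysosomal gene. TSPOAP1 came first at 11.2 and 58.1 TPM (log2 difference 2.28), followed by FAM83A at 34.5 and 148 TPM. MS4A3, a membrane protein of granulocyte-monocyte progenitors, had 60.8 and 234 TPM, and MS4A6A, of the same family, 90.5 and 260 TPM. SLPI, which inhibits granule proteases, had 40.2 and 109 TPM, and HP, haptoglobin, a plasma protein also stored in neutrophil granules, had 6.03 and 16.4 TPM. GM2A, a lysosomal lipid activator, had 15.4 and 42.3 TPM. The protease CTSL, outside the 15 largest gaps, had 93.6 and 228 TPM. In the lysosome list as a whole, however, CTSL was the 1 gene past 2-fold of 38 counted, and the median was 0.28.

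Few genes at these levels passed the 2-fold rule in any case: 2.27% of protein-coding genes with a mean of 10 to 30 TPM and 1.65% at 30 to 100 TPM. None of 40 cell cycle genes passed it, which is near that background, and their median difference was -0.01. PCNA, the clamp of replicating polymerases, had 410 and 539 TPM, and MCM4, of the replicative helicase, 381 and 539 TPM, while CCNB1, the mitotic cyclin, had 195 and 145 TPM. None of 30 MYC targets, 56 ribosomal protein genes, 13 mitochondrial genes or 33 nuclear genes of oxidative phosphorylation passed it either. By any amount, 32 of 33 oxidative phosphorylation genes were higher in shNT 2 (median 0.24). So were 25 of 30 MYC targets (0.09) and 10 of 13 mitochondrial genes (0.08), while 44 of 56 ribosomal protein genes were higher in shNT 1 (-0.12). Over all 12304 genes counted, 7053 were higher in shNT 2, with a median of 0.06. The median was 0.12 for protein-coding genes with a mean of 100 to 1000 TPM. The MYC target median lay between these background values. At a mean of 1000 TPM or more, the median was -0.05 over 122 protein-coding genes, many of them ribosomal protein or mitochondrial genes. ATP5F1B, a subunit of ATP synthase, had 778 and 939 TPM, and COX7C, the 1 oxidative phosphorylation gene higher in shNT 1, had 474 and 376 TPM. The sterol pathway had a median of 0.32, with 18 of 22 genes higher in shNT 2, but its enzyme MVD was 2-fold higher in shNT 1 at 41.0 and 19.5 TPM.

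The remaining process lists held few genes past 2-fold. Of 16 heat shock genes, 2 were higher in shNT 1, the inducible chaperones HSPA1B (31.2 and 10.5 TPM) and HSPA6 (5.78 and 1.49 TPM), and the median was -0.11. HSPA8, the constitutive chaperone of the same family, had 2786 and 2377 TPM. Of 12 genes of class I antigen presentation, PSMB8, an immunoproteasome subunit, was the 1 past 2-fold, higher in shNT 2 at 2.8 and 6.99 TPM. Of 6 class II genes counted, IFI30, a thiol reductase of antigen processing, was higher in shNT 1 at 161 and 53 TPM, and the class II activator CIITA had 0.697 and 0.334 TPM. None of 15 polyamine and nucleoside genes passed, with ODC1, the first enzyme of polyamine synthesis, at 137 and 140 TPM. In the dendritic cell list CD1A (6.84 and 1.18 TPM) and PTCRA (1.89 and 0.317 TPM) were higher in shNT 1 among 5 counted.

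**Figure D5:**
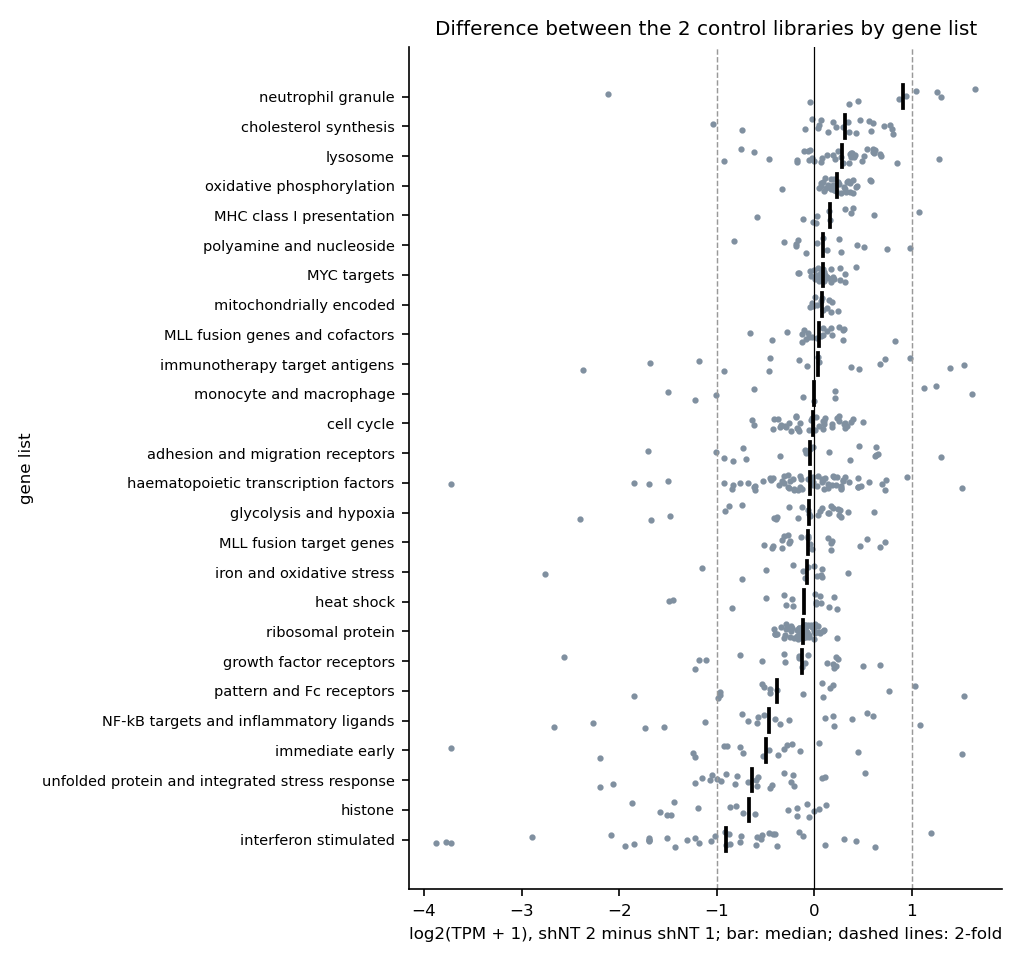
Log2(TPM + 1) of shNT 2 minus shNT 1 for the genes of most lists with 10 or more genes counted. Each gene is 1 point, with a black bar at the list's median and dashed lines at 2-fold. The leukaemia driver and BCL2 family lists are among those not drawn. Interferon-stimulated genes lie farthest toward shNT 1 (median -0.91, 18 of 39 past 2-fold), while cell cycle genes centre near 0 (median -0.01) with no gene past 2-fold.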

How the data were processed

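Per the submitters' processing notes, the authors used kallisto and the hg19 build, with versions and settings not given in the sources used here. The deposited table holds TPM per gene. The shNT columns sum to 904366 and 909969 TPM over the rows used here. The 2 shNT columns were read and 4 other columns were not used. Symbols and gene types came from a table of gene names and GENCODE release 29, and 35677 of 39771 rows matched. Differences are log2(TPM + 1) of shNT 2 minus shNT 1 for rows with a mean of at least 1 TPM, and at least 2-fold was counted. The 47 gene lists were chosen with earlier results of these data known. The genes named are members of these lists at 10 TPM or more, under 1 TPM or past 2-fold, the most abundant genes and the 15 largest differences in each direction, and some further list members chosen after their values were seen. The counting steps were tested on simulated data. Python 3.11.15, pandas 2.3.3 and numpy 2.4.6 were used. Alternatives changed the minimum, the pseudocount, the scaling and the rows used, or left out a library. Some genes are not reported here.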

Additional observations from a re-analysis of the deposited data

How the results depend on the processing

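The 10286 detected protein-coding genes became 10879 at a minimum of 0.5 TPM and 8047 at 5 TPM, and 10464 to 10615 when either library was left out. The mean share of the 100 most abundant genes, 46.1% of protein-coding TPM, was 41.8% over nuclear genes only and 45.1% to 47.0% with a library left out. The 530 genes past 2-fold became 890 with a pseudocount of 0.1 TPM, 161 with a pseudocount of 5 TPM, 156 at a mean of at least 10 TPM and 350 over protein-coding genes only. Those higher in shNT 2 (166) became 306, 47, 54 and 97 in the same order, and those higher in shNT 1 (364) became 584, 114 and 102, with 253 over protein-coding genes. These counts therefore depend on the treatment of low values. Without a filter, or with either rescaling, the total ranged from 531 to 660, and scaling to an equal median gave 408 higher in shNT 1 and 129 in shNT 2. Of 99 genes named from the lists or the largest differences and past 2-fold, 61 passed in every setting that kept them. The setting at a mean of at least 10 TPM kept only 57 of the 99. With a pseudocount of 5 TPM, 37 of the 99 did not pass. The median of the heat shock list turned from -0.11 to 0.0031 at a mean of at least 10 TPM. No paired analysis was possible because only 1 group was described and no test was made. Unknown depth limits all low values.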
